A study of Mus musculus with 2 samples.

Results

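The intestinal enterocyte genes described here are 10 genes of the absorptive epithelium of the small intestine, Fabp1, Fabp2, Lgals4, Vil1, Cdh17, Rbp2, Sis, Lct, Cdx1 and Slc5a1, measured in the stomach of the mouse embryo. They were chosen by name, with their Ensembl identifiers matched to GENCODE mouse symbols, and all 10 of 10 were found among the 43346 genes of each table. Total RNA over 200 nt from stomachs of B6NCrl embryos at 16.5 days, males and females mixed and labelled healthy, was sequenced in 2 biological replicates from 10 ng each. Each replicate is a pool, of 41 embryos in replicate 2 and of an unstated number in replicate 1, and both labels name the same donor entry, so the spread given here is that between these pools. The libraries form 1 group with no treatment or second tissue, so the data answer how high these genes stood in the stomach and how far the pools differed.

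Enterocytes are the columnar cells that line the intestinal villi. Their apical membrane forms a brush border of microvilli, which carries sugar- and peptide-splitting enzymes and transporters, and their cytoplasm holds abundant small proteins that bind fatty acids and retinol. The transcription factors CDX1 and CDX2 give the intestinal epithelium its identity, and HNF4 and GATA factors act with them on enterocyte genes. The stomach lies next to the duodenum, and its own columnar epithelium is known for mucus, acid and protease secretion. In mice, lactase is the brush border disaccharidase of the suckling period and sucrase-isomaltase appears at weaning.

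The upstream sequences of the 2 disaccharidase genes, of the highest of the 10 genes and of the retinol-binding gene are shown first, because the levels below set Lct against Sis and put Fabp1 and Rbp2 among the 3 leading genes. They come from the RefSeq promoter table on GRCm38.p6, which held 8 of the 10 genes, and run 5′ to 3′ on the strand of the gene up to the base before the start of transcription or before the nearest annotated exon. Lct lies on the minus strand at chr1:128328319-128328568, Sis on the minus strand at chr3:72967864-72968113, Fabp1 on the plus strand at chr6:71199629-71199826 and Rbp2 on the plus strand at chr9:98490287-98490536.
Lct: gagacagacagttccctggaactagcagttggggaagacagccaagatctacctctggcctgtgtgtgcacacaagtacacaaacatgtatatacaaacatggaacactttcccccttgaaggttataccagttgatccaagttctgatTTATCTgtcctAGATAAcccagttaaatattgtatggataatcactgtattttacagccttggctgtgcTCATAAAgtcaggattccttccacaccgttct
Sis: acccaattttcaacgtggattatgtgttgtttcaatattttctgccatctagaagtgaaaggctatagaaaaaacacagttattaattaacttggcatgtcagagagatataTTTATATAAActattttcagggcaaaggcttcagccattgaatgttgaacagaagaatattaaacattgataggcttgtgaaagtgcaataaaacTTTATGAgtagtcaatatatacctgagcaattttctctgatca
Fabp1: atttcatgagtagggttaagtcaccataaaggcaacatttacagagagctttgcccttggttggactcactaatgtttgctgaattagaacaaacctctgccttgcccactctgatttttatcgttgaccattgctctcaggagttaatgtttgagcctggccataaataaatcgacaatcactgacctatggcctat
Rbp2: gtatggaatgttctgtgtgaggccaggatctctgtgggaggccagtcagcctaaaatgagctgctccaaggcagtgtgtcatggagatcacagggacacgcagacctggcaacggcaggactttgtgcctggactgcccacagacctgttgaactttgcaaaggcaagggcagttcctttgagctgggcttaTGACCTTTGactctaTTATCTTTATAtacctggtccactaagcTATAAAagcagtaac
Capitals mark 4 short motifs searched on both strands, in which neighbouring matches may overlap: TTTATGA of CDX type, CAAAGGTCA of HNF4 type, AGATAA of GATA type and the TATA box TATAAA. They were chosen after the sequences had been seen, and none of the 4 is in the window of Fabp1.

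Lct and Sis shared a run of 10 letters in opposite orientation. The run was sought in this pair only, and how often other pairs of promoters share such a run was not measured. It reads CTCATAAAGT upstream of Lct, starting 33 bases before the start of transcription, and ACTTTATGAG upstream of Sis, starting 45 bases before it, and it contains the CDX-type motif. Elements of this kind near the start of the pig lactase gene and of the mouse and human sucrase-isomaltase genes are known to bind CDX2. The CDX-type motif stood in 2 of the 8 genes' sequences and in 3.48% of 27025 promoters, 1 per gene, over the 250 bases before the start. These 2 are Lct and Sis, and both matches lie within the shared run, so they are not separate from it. The HNF4-type motif stood 58 bases before the start of Rbp2 and in 0.407% of promoters. The GATA-type motif stood upstream of Lct and Rbp2 (10.3% of promoters) and the TATA box upstream of Rbp2 and Sis (13.0%). A match describes the letters only and shows no binding.

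Expected counts over genes totalled 43195887 for replicate 1 and 25151165 for replicate 2. The unit of level used below is TPM, which is corrected for gene length and scaled to a fixed total per library, and means are given ± SD over n = 2 libraries. The 10 genes held 33140 expected counts in replicate 1, or 0.0767% of the total (95% Wilson interval 0.0759% to 0.0776%), and 18383 in replicate 2, or 0.0731% (0.0720% to 0.0742%). Intervals here cover counting error only, since amplified reads are not independent molecules. The deposited posterior standard deviation of the gene count, a measure of uncertainty in assigning reads to genes, was 0 for all 10 genes in both libraries. In bulk tissue, fewer cells of a type and less RNA per cell cannot be told apart.

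Enterocyte genes were present in the stomach over a wide range of levels, and 9 of the 10 reached 1 TPM in both libraries, where 35.5% of all genes and 64.3% of nuclear protein-coding genes did so. The lipid-binding and galectin genes stood highest, structural and adhesion genes of the brush border and lateral membrane in the middle, and the sugar-handling genes and Cdx1 low. Sucrase-isomaltase alone was close to 0. Fabp1 and Lgals4 made up 74.5% of the summed TPM of the 10 genes in replicate 1 and 72.3% in replicate 2. With 6 of the 10 genes above the median of detected genes (15.4 TPM) and 4 below it, the genes did not stand at a common level.

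**Figure D1:**
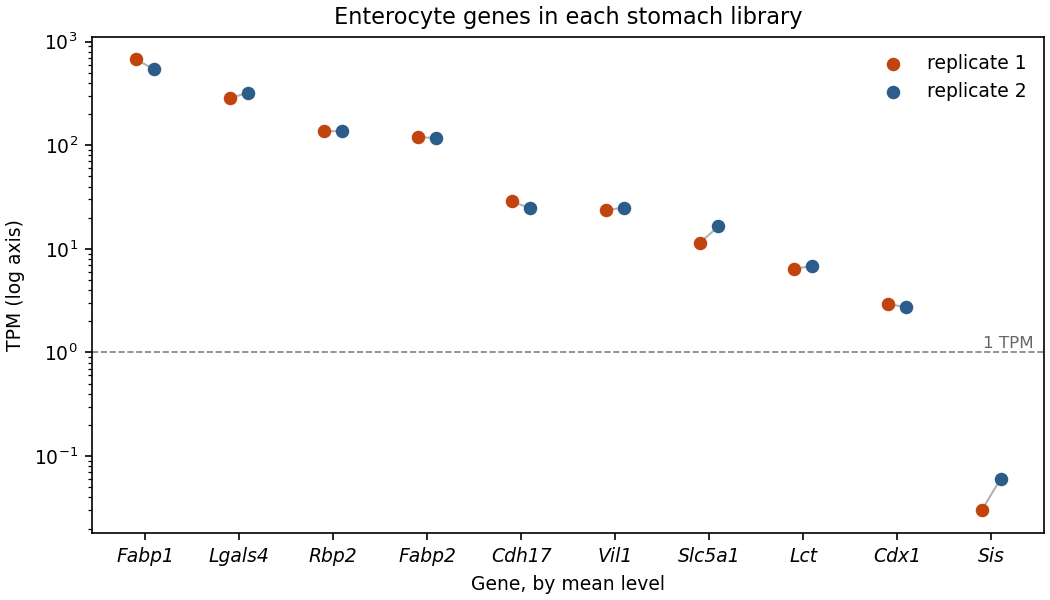
TPM of each of the 10 enterocyte genes (log axis) in replicate 1 and replicate 2, with genes ordered by mean level; the dashed line is 1 TPM. Levels ran from 676 and 540 TPM for Fabp1 to 0.03 and 0.06 TPM for Sis, and Sis alone lay below the line.

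Among the genes of the cytoplasm, Fabp1 (ENSMUSG00000054422; chromosome 6, 71199827 to 71205023), the liver-type fatty acid binding protein that enterocytes and hepatocytes both make, had 675.86 TPM in replicate 1 and 540.29 TPM in replicate 2 (608 ± 95.9). It ranked 174 of 21461 nuclear protein-coding genes, and it was higher in replicate 1. Fabp2 (chromosome 3, 122895072 to 122899506), the intestinal fatty acid binding protein, had 120.09 and 117.40 TPM in replicates 1 and 2 (119 ± 1.90). Corrected for length, Fabp1 stood 5.63-fold above Fabp2 in replicate 1 (95% counting interval 5.41 to 5.86) and 4.60-fold above it in replicate 2 (4.35 to 4.87).

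Rbp2 (chromosome 9, 98486115 to 98509781), the cellular retinol-binding protein of absorptive cells, had 136.19 TPM in replicate 1 and 137.40 TPM in replicate 2 (137 ± 0.856). Its SD was 0.625% of the mean, the smallest relative spread of the 10 genes. Lgals4 (chromosome 7, 28833854 to 28841708), a galectin of gut epithelium that binds glycans and takes part in apical sorting, had 285.91 TPM in replicate 1 and 320.92 TPM in replicate 2 (303 ± 24.8). These 4 genes were the ones at 100 TPM or more in both libraries.

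Cdh17 (chromosome 4, 11758147 to 11817895), the liver-intestine cadherin of the lateral membrane, had 28.74 TPM in replicate 1 and 24.64 TPM in replicate 2 (26.7 ± 2.90). Vil1 (chromosome 1, 74409376 to 74435559), the actin-bundling protein villin of the microvillus core, had 23.62 TPM in replicate 1 and 25.03 TPM in replicate 2 (24.3 ± 0.997). The libraries of these genes overlapped, so their order was not resolved. An exon of Usp37 on the other strand overlaps Vil1 in the GENCODE release used for positions, and the counting is not stated to use strand. Reads of Vil1 and Usp37 (21.81 and 22.15 TPM in replicates 1 and 2) may therefore not be fully separated there. The posterior standard deviation of the Vil1 count was 0 in both libraries, and the separation was not tested further.

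Slc5a1 (chromosome 5, 33104219 to 33162870), the sodium-glucose cotransporter SGLT1 of the brush border, had 11.42 TPM in replicate 1 and 16.47 TPM in replicate 2 (13.9 ± 3.57). Its SD was 25.6% of the mean, the widest among the 9 detected genes. Lct (chromosome 1, 128284756 to 128328318), which encodes lactase, had 6.45 TPM in replicate 1 and 6.80 TPM in replicate 2 (6.62 ± 0.247). Cdx1 (chromosome 18, 61018862 to 61036199) had 2.92 TPM in replicate 1 and 2.75 TPM in replicate 2 (2.84 ± 0.120).

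Sis (ENSMUSG00000027790; chromosome 3, 72888557 to 72967863), which encodes sucrase-isomaltase, had 0.03 TPM in replicate 1 and 0.06 TPM in replicate 2, from 6 expected counts in each library (exact Poisson interval 2.20 to 13.1). Lct had 1202 and 700 counts in replicates 1 and 2. Per effective length Lct stood 191-fold above Sis in replicate 1 (exact counting interval 87.4 to 521) and 113-fold above it in replicate 2 (51.5 to 308). Lct was far above Sis in both pools, and the few Sis reads do not resolve whether replicates 1 and 2 differed.

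In the order of levels, 8 of the 9 neighbouring genes were apart in both libraries, and Cdh17 and Vil1 were the exception. The smallest step that was apart was that of Rbp2 over Fabp2, which was 1.13-fold in replicate 1 (1.08 to 1.20) and 1.17-fold in replicate 2 (1.09 to 1.26). For 5 of the 10 genes the SD was under 5% of the mean.

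The wider absorptive programme was described from 6 lists, leaving out the 10 genes: 66 of 78 other genes reached 1 TPM in both libraries. For all nuclear protein-coding genes this share was 64.3%, the background for each such count below. All 13 of 13 other brush border structure genes reached 1 TPM in both libraries, with median levels of 11.72 TPM in each library. Ezr, the ezrin gene, stood at 248 ± 46.6 TPM, the scaffold gene Slc9a3r1 at 113 ± 4.16, Mall at 54.3 ± 14.0 and the fimbrin gene Pls1 at 36.6 ± 0.0212. Ezr and Slc9a3r1 are not particular to intestine, and which cells of the stomach made the genes of the 6 lists was not tested. Genes of the tip links between microvilli were lower but present, with Cdhr5 at 11.72 TPM in both libraries and Cdhr2 at 8.04 ± 0.0354, and the myosin gene Myo7b was lowest at 2.15 ± 0.0354.

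Brush border enzymes were unequal. Of the 12 other hydrolase genes 8 reached 1 TPM in both libraries, near the 64.3% of nuclear protein-coding genes that did so. The aminopeptidase gene Anpep stood at 34.1 ± 2.22 TPM, the intestinal alkaline phosphatase gene Alpi at 32.6 ± 0.467, the aminopeptidase A gene Enpep at 15.8 ± 0.537 and Dpp4 at 15.4 ± 0.516. The other sugar-splitting genes of this hydrolase list stood below Lct in both libraries. Mgam, maltase-glucoamylase, had 1.41 TPM in replicate 1 and 0.68 TPM in replicate 2, and Treh, trehalase, had 0 TPM in replicate 1 and 0.03 TPM in replicate 2. Lct held 4.58 times the level of Mgam in replicate 1 (4.02 to 5.24) and 9.94 times in replicate 2 (7.83 to 12.8). The enterokinase gene Tmprss15, a duodenal enzyme that activates trypsinogen, had 0.05 TPM in replicate 1 and 0.07 TPM in replicate 2.

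Of the 14 other transporter genes 11 reached 1 TPM in both libraries. The iron exporter gene Slc40a1 stood at 109 ± 8.22 TPM, the iron importer gene Slc11a2 at 22.7 ± 0.0212 and the amino acid transporter gene Slc7a7 at 15.8 ± 2.56. The sugar transporter genes Slc2a2 and Slc2a5 stood at 3.65 ± 0.226 and 1.14 ± 0.424 TPM, and the peptide transporter gene Slc15a1 at 3.41 ± 0.297, all below Slc5a1. The ileal bile acid transporter gene Slc10a2 had 0 TPM in replicate 1 and 0.04 TPM in replicate 2.

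Most lipid-handling genes were present, with 13 of 15 others at 1 TPM or more in both libraries. Apoa1 stood at 475 ± 65.6 TPM, Apoa4 at 174 ± 14.3, the triacylglycerol-forming enzyme genes Dgat2 and Mogat2 at 92.6 ± 14.1 and 26.8 ± 0.750, and Mttp, which loads lipid onto apolipoprotein B, at 45.3 ± 3.19. The sterol exporter gene Abcg8 was lowest, at 0.08 TPM in both libraries. Of the late fetal and suckling list, 6 of 8 others reached 1 TPM in both libraries, with Ass1 at 180 ± 12.3, the neonatal Fc receptor gene Fcgrt at 113 ± 2.88, Glb1 at 60.9 ± 1.21 and Dab2 at 39.5 ± 1.27 TPM, while Cubn had 0.68 and 0.45 TPM and Lrp2 0.50 and 0.51 TPM in replicates 1 and 2.

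**Figure D2:**
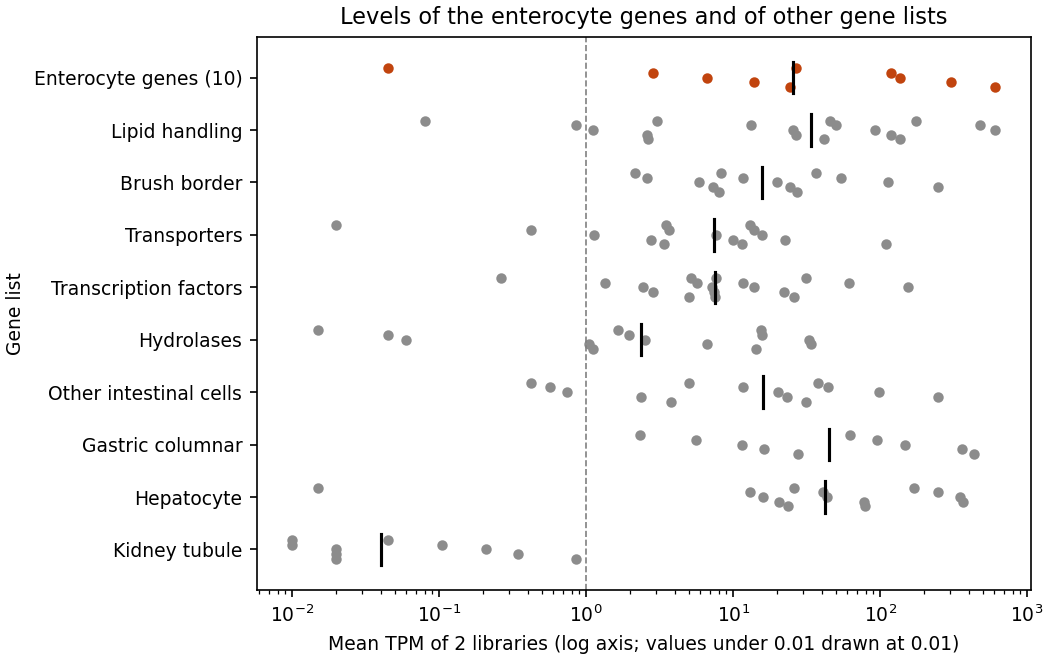
Mean TPM of 2 libraries (log axis) for each gene of the enterocyte genes and of 9 other lists; points are genes, black bars list medians, and the dashed line 1 TPM. The median of the enterocyte genes was 25.5 TPM, below the medians of the lipid handling (34.1), hepatocyte (42.4) and gastric columnar (45.2) lists. It was above those of the other 6, from 15.9 TPM for other intestinal cells to 0.04 TPM for kidney tubule genes. Lists are drawn whole, so the lipid handling, brush border, transporter, transcription factor and hydrolase lists include some of the enterocyte genes. Without these the lipid handling medians were 25.94 and 25.19 TPM in replicates 1 and 2, level with the enterocyte genes.

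The intestinal transcription factors were led by factors that stomach epithelium also makes. Of the 18 factors listed 17 reached 1 TPM in both libraries. Elf3 stood at 154 ± 33.0 TPM, Klf5 at 61.3 ± 9.28, Hnf4a at 31.1 ± 5.04, Klf4 at 26.1 ± 3.15 and Gata4 at 22.0 ± 3.70. Creb3l3, a regulator of lipoprotein genes, stood at 13.8 ± 2.23, Hnf4g at 11.7 ± 1.30, Gata6 at 7.60 ± 0.396, Maf at 7.40 ± 1.60 and Isx, a repressor of vitamin A uptake, at 7.20 ± 0.106. Prdm1, which in mice holds back the adult enterocyte programme before weaning, stood at 5.67 ± 0.354, Gata5 at 5.05 ± 0.764 and Onecut2 at 1.34 ± 0.148.

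The caudal factors were low. Cdx1 stood at 2.84 ± 0.120 and Cdx2 at 2.42 ± 0.481 TPM, and Cdx4 had 0 TPM in replicate 1 and 0.03 TPM in replicate 2. Corrected for length, Cdx1 was 1.06-fold of Cdx2 in replicate 1 (95% counting interval 0.847 to 1.32) and 1.33-fold in replicate 2 (0.956 to 1.84), so their levels were not told apart by counting error alone. Cdx1 rested on 148 and 78 expected counts in replicates 1 and 2.

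Relatives of the 10 genes were measured as families. Among 15 intracellular lipid-binding proteins Fabp5, the epidermal type, was highest at 908 ± 127 TPM, above Fabp1 in both libraries, and Rbp2 (137 ± 0.856) was 3rd. Fabp4 stood at 59.4 ± 8.10, Fabp7 at 42.7 ± 0.332, Crabp1 at 32.0 ± 4.57 and Crabp2 at 30.1 ± 8.86. Fabp3, the heart and muscle type, had 25.80 TPM in replicate 1 and 7.09 TPM in replicate 2. The ileal gene Fabp6 stood at 2.59 ± 0.0283, Rbp7 at 3.64 ± 0.544 and Fabp12 at 1.60 ± 0.290, and Fabp9 and Pmp2 were at 0 in both libraries. Fabp1, Rbp2 and Fabp2 took the 3 places below Fabp5 in this family.

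Among galectins Lgals4 was exceeded by Lgals1, a galectin of mesenchyme, at 1260.5 ± 32.5 TPM, and stood above Lgals3 (108 ± 24.6), Lgals2 (86.2 ± 18.8), Lgals9 (77.9 ± 13.7), Lgals8 (29.7 ± 0.460), Lgals7 (6.53 ± 2.55) and Lgals12 (2.93 ± 0.0990). Villin was lower than most of its relatives: Gsn stood at 342 ± 44.4, Capg at 133 ± 25.3, Svil at 78.2 ± 12.0, Flii at 76.5 ± 7.59 and Vill at 39.4 ± 6.43 TPM, while Scin (7.03 ± 1.05) and Avil (1.20 ± 0.530) were lower. Villin itself ranked 6th of these 8 genes.

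Among cadherins, Cdh1 (E-cadherin) stood at 199 ± 34.6 TPM and the kidney cadherin Cdh16 had 1.04 TPM in replicate 1 and 0.68 TPM in replicate 2. Slc5a1 was the highest of the 13 members of its family, ahead of the iodide carrier Slc5a5 at 9.12 ± 3.51, Slc5a6 at 8.12 ± 0.262 and Slc5a9 at 7.74 ± 0.445, and the renal glucose carrier Slc5a2 stood at 0.21 ± 0.0283. Of the other carriers Slc5a3 stood at 4.12 ± 0.0212, Slc5a7 at 2.46 ± 0.170 and Slc5a11 at 1.67 ± 0.587, and Slc5a8, Slc5a4a, Slc5a4b, Slc5a10 and Slc5a12 were below 1 TPM in both libraries. Among relatives of Lct and Sis, the lysosomal and reticulum enzymes Gaa (66.0 ± 7.66) and Ganab (80.6 ± 3.46) were higher than Lct, Ganc stood at 7.90 ± 0.587 and Klb at 1.52 ± 0.106, and Lctl stood at 0.14 ± 0.0707 TPM.

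Markers of other cells that make some of the 10 genes were measured in the same libraries. Of 14 hepatocyte markers 13 reached 1 TPM in both libraries, with a summed level of 1631 TPM in replicate 1 and 1313 TPM in replicate 2, led by Afp (369 ± 92.4), Trf (347 ± 35.4), Apoa2 (248 ± 46.4) and Alb (169 ± 16.6). Tat was at or near 0, with 0.03 TPM in replicate 1 and 0 TPM in replicate 2. Hepatocytes make Fabp1, Apoa1 and Apob, and their part in these levels was not tested. Of 10 kidney tubule markers none reached 1 TPM in both libraries, with summed levels of 1.52 TPM in replicate 1 and 1.73 TPM in replicate 2, and Umod and Kap were at 0 in both libraries.

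Genes of other intestinal cells were also present, with 11 of 14 at 1 TPM or more in both libraries. Agr2 stood at 246 ± 55.1, Tff3 at 98.1 ± 13.5, Fcgbp at 44.0 ± 9.81 and the goblet cell lectin gene Zg16 at 38.1 ± 19.8 TPM, and Muc2, the main intestinal gel mucin, at 2.35 ± 0.403. Agr2 is also made by gastric mucous cells. The secretory factor Atoh1 was lowest, with 0.59 and 0.26 TPM in replicates 1 and 2, and the stem cell genes Lgr5 and Olfm4 stood at 3.80 ± 0.346 and 20.1 ± 3.51 TPM. Pancreatic acinar genes were abundant, with 9 of 10 at 1 TPM or more in both libraries and a summed level of 5619 TPM in replicate 1 and 6227 TPM in replicate 2, led by Ctrb1 at 2915 ± 137 TPM and with Cela2a and Cpa1 also among the highest. Pnlip had 0.40 TPM in replicate 1 and 0.38 TPM in replicate 2. How much of the 10 genes came from tissue next to the stomach was not tested.

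The pools were compared by a ratio per gene. On the TMM-scaled log2 ratio of replicate 1 over replicate 2, none of the 9 enterocyte genes kept by the low-count filter was more than 2-fold apart, where 3.58% of 17763 genes were: 0 of 9 were more than 2-fold higher in replicate 1 (1.24% of all genes) and 0 of 9 more than 2-fold lower (2.34%). A count of 0 among 9 genes is near that background. With spike-in scaling 1 of the 9, Slc5a1 at -1.07, was more than 2-fold apart, where 8.03% of all genes were, and the median of the 9 was -0.59. Their median log2 ratio was -0.01, against 0.002 for all genes past the filter, with a range of -0.49 to 0.36, inside the central 95% of all genes (-0.95 to 0.75). Sis did not pass the filter. The ratio rests on counts and can differ from TPM. Pls1 had 36.66 and 36.63 TPM in replicates 1 and 2, but a log2 ratio of -0.18 (95% counting interval -0.26 to -0.10). Eps8 of the brush border list had 24.49 and 29.52 TPM, but a log2 ratio of 0.14 (0.05 to 0.24). A small SD in TPM therefore does not mean equal scaled counts. Each side is 1 library, so no test of these differences was possible.

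Fabp1 had a log2 ratio of 0.36 (95% counting interval 0.31 to 0.41) and Cdh17 of 0.26 (0.17 to 0.35), both above the median gene in replicate 1, and these turned to -0.22 and -0.32 with spike-in scaling, which shifts the median of all genes by -0.57. Lgals4 stood at -0.13 (-0.17 to -0.08) and Slc5a1 at -0.49 (-0.61 to -0.38), both lower in replicate 1. The counting interval left out 0 for these 4 of 9 genes, where it did so for 39.4% of all genes past the filter. For Rbp2 (-0.01), Lct (-0.02), Vil1 (-0.04), Fabp2 (0.07) and Cdx1 (0.12) it included 0.

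**Figure D3:**
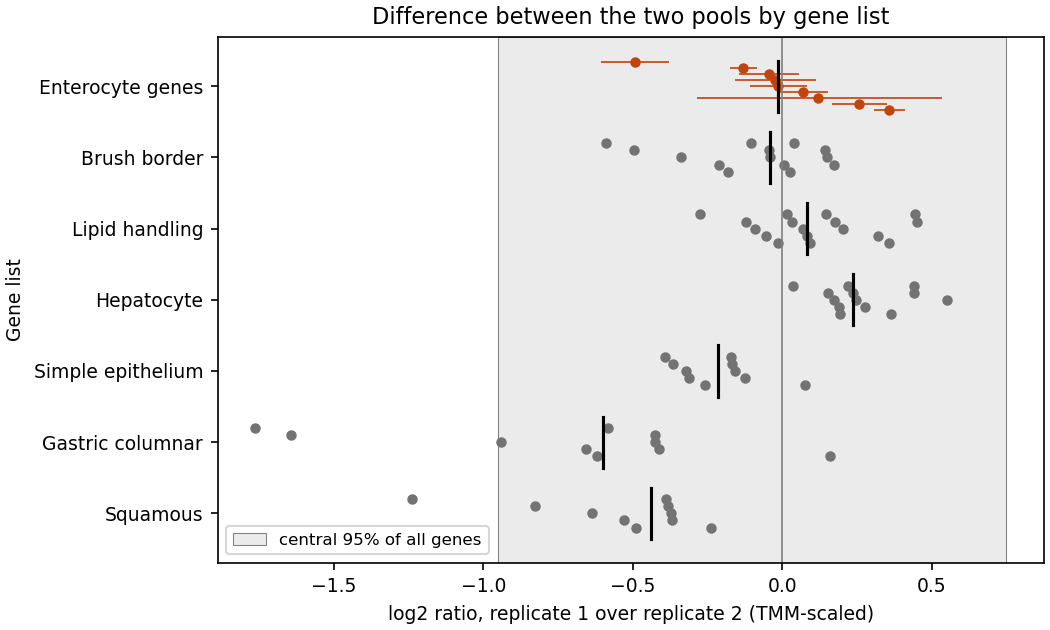
Log2 ratio of replicate 1 over replicate 2 (TMM-scaled) for genes past the low-count filter in 7 lists; black bars are list medians, the shaded band the central 95% of all genes, and red lines the 95% counting intervals of the enterocyte genes. The enterocyte genes lay between -0.49 and 0.36, while the medians of the gastric columnar and squamous lists were -0.60 and -0.44.

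The gastric columnar, squamous and simple epithelium lists lay lower in replicate 1. By mean TPM, not by ratio, the gastric columnar list was led by Tff1, Cldn18, Pga5 and Tff2, with Muc5ac lowest. On the same measure the squamous list was led by Krt4, Krt13, Krt15 and Sprr3, with Dsc3 lowest. The simple epithelium list was led in TPM by Krt8, Krt19, Krt18 and Cldn7, with Cldn3 lowest. The enterocyte genes were split, with 4 higher and 5 lower in replicate 1, near the 50.4% of all genes past the filter that were higher. The gastric columnar genes had 1 higher and 9 lower (median -0.60), the squamous genes 0 and 10 (median -0.44) and the simple epithelium genes 1 and 9 (median -0.21). The list of other intestinal cells had 4 higher and 8 lower (median -0.26), and the pancreatic acinar list 6 and 4 (median 0.07). With spike-in scaling these became 1 and 11 (median -0.83) and 0 and 10 (median -0.51). Hepatocyte genes had 13 of 13 higher (median 0.24), and 0 of 13 higher with spike-in scaling (median -0.34). The other absorptive genes of the 6 lists had 40 higher and 34 lower (median 0.01), which became 2 higher and 72 lower with spike-in scaling (median -0.56). Of these only the hydrolases Mgam and Naaladl1 were more than 2-fold apart, with log2 ratios of 1.06 (0.70 to 1.46) and 1.25 (0.78 to 1.82). With spike-in scaling they stood at 0.49 and 0.69, and Anks4b (-1.16) and Mall (-1.07) were the 2 genes more than 2-fold apart in their place. Among relatives Fabp3 stood at 1.88 (1.31 with spike-in scaling) and Slc5a8 at 1.19 (0.67). Among other intestinal cells Atoh1 stood at 1.08 (0.56) and Zg16 at -1.08 (-1.65), and among the gastric and squamous markers Gkn1 stood at -1.76 (-2.34), Gkn2 at -1.64 (-2.22) and Sprr3 at -1.24 (-1.82). These differences between lists were not tested, since each side is 1 library. With spike-in scaling all 9 enterocyte genes, and all genes of the gastric columnar, squamous and simple epithelium lists, were below 0. The medians were then -0.59 for the enterocyte genes, -1.18 for gastric columnar, -1.02 for squamous and -0.79 for simple epithelium genes. More than 2-fold apart were 8 of 10 gastric columnar, 5 of 10 squamous and 0 of 10 simple epithelium genes, where 8.03% of all genes were.

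At the level of transcripts, 6 of the 10 genes have more than 1 in the annotation, and for 6 of these 6 the transcript with the highest TPM was the same in replicates 1 and 2. For Sis this rested on 6 expected counts in each library, so its agreement carries little weight. The other 4 genes (Fabp1, Fabp2, Cdx1 and Slc5a1) have 1 each. Vil1-201 carried 97.7% ± 0.283 of its gene's TPM, Cdh17-201 99.7% ± 0.139 and Lct-201 99.3% ± 1.04, all coding for protein.

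The TPM of Rbp2 was divided among transcripts with different annotated starts. Rbp2-201, whose start is the one that follows the sequence shown above, carried 69.0% of the gene's TPM in replicate 1 and 63.4% in replicate 2 (66.2% ± 4.02). Rbp2-202 and Rbp2-204 start 4371 and 4422 bases upstream of it, and together they carried 30.8% in replicate 1 and 36.1% in replicate 2 (33.4% ± 3.73). The split between these upstream transcripts differed, with Rbp2-204 at 10.8% in replicate 1 and 20.9% in replicate 2. For Lgals4, Lgals4-201 carried 78.6% in replicate 1 and 77.6% in replicate 2 (78.1% ± 0.740), and 4 transcripts annotated as retaining an intron carried 21.4% in replicate 1 and 21.6% in replicate 2. Reads from exons that several transcripts have in common are divided by estimation, which limits these shares. The counts of Sis were all assigned to Sis-201, which starts 997 bases downstream of the start that follows the sequence shown above, and 6 counts cannot separate transcripts that overlap almost fully.

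**Figure D4:**
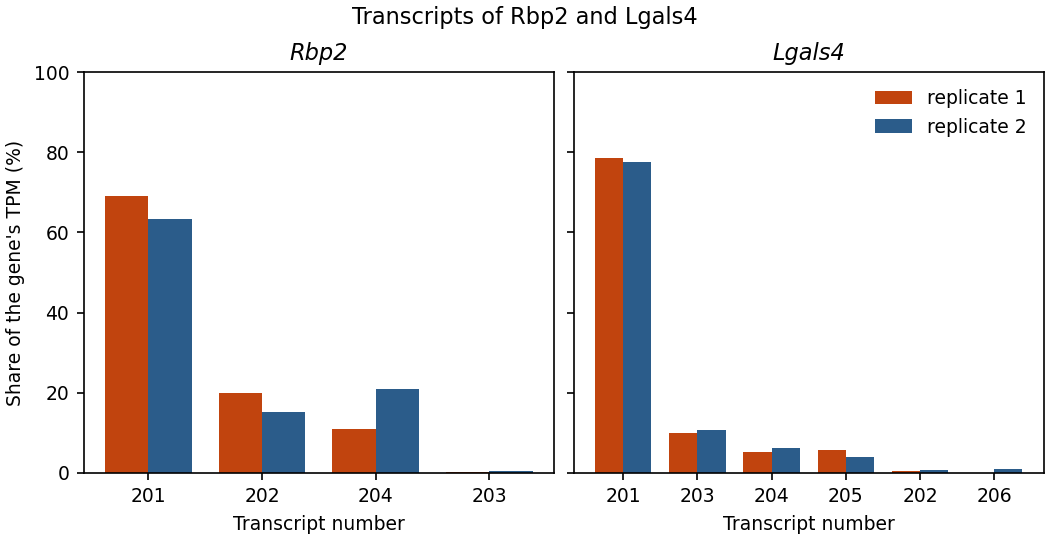
Share of the gene's TPM (%) held by each annotated transcript of Rbp2 and Lgals4 in replicate 1 and replicate 2. Rbp2-201 led with 69.0% and 63.4% and Lgals4-201 with 78.6% and 77.6%.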

How the data were processed

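For each library the authors deposited tables of genes and of transcripts on mm10 with annotation M4, per the text lists deposited beside them; the aligner and quantifier were not given in the sources used here. An expected count, as the authors deposited it, is an estimated number of reads per feature and comes with a posterior standard deviation. The deposited TPM and FPKM are the authors' length-corrected levels, and the TPM total includes spike-ins. Symbols and positions came from GENCODE M21 (GRCm38, the same assembly in a later release), which named 42462 of 43346 genes; the listed symbol Lgals6 was not matched. Spike-ins (3.08% and 2.05% of counts in replicates 1 and 2) and 26248 features with numeric identifiers (74.99 and 27.0 counts) stayed out of library sizes.

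Expected counts were rounded, filtered with filterByExpr for 1 group (17763 genes) and scaled with the TMM method of edgeR (version 4.0.16, under R 4.3.3) and a prior count of 2; DESeq2 1.42.0 size factors were an alternative. The step was tested on simulated data. With 1 group of 2 libraries no p-value was computed. The libraries differed beyond counting noise (chi-square per degree of freedom 24.1 over 20017 genes), so both were counted. Counting intervals are exact binomial. Other steps used Python 3.11.15 and scipy 1.17.1.

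Named were the 10 genes, the 4 highest and the lowest of each other list, all listed transcription factors and family members, and genes more than 2-fold apart; further genes (such as Cdhr2, Cdhr5, Tmprss15, Slc2a2, Slc2a5, Slc15a1, Dgat2, Mogat2, Mttp, Cubn, Muc2, Lgr5 and Olfm4) were named after their values were seen. A few listed genes count in the totals and medians but are not reported here. Kidney and family lists are given in part by their range. The members and lists were chosen with earlier results of these data known.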

Additional observations from a re-analysis of the deposited data

How the results depend on the processing

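The number of enterocyte genes at 1 TPM in both libraries (9) became 8 at 5 TPM and stayed at 9 at 0.5 TPM, with FPKM, with posterior mean TPM and in either library alone. With spike-in totals the median log2 ratio of the 9 filtered genes was -0.59 and 1 gene, Slc5a1 (-1.07), was more than 2-fold apart; DESeq2 size factors, library size, unscaled TPM, a prior count of 0.5 and no filter gave 0 such genes, as did a limit of 1.5-fold. The median level of the 10 genes was 17.3 in FPKM, which is another scale, and 24.8 to 26.2 TPM with 1 library left out. The order of levels and its 8 separated neighbours held with FPKM and posterior mean TPM, alternatives chosen after seeing the data. Sis stood at 0.165 posterior mean TPM, against 0.045 TPM, since posterior means do not reach 0. Lct stood at 6.855 posterior mean TPM, against 6.625 TPM. The fold of Lct over Sis was therefore smaller in posterior mean TPM, and the counting intervals given for it do not cover this choice of unit. With expected counts in place of TPM, Lgals4-201 carried 86.0% of its gene. With posterior mean TPM, Lct-201 carried 93.3% of its gene. In that unit Sis-203 led its gene, with 41.7% in replicate 1 and 38.1% in replicate 2, in place of Sis-201. With 1 library left out, agreement of leading transcripts cannot be computed. No paired analysis was possible because there is 1 group. Depth limits Sis and Cdx1, and 2 pools limit all spreads.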
